A study of Homo sapiens with 9 samples.

Results

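Heat shock proteins and their DNAJ co-chaperones were compared between breast cancer cells carrying MEL-18 T334A, wild-type MEL-18 or an empty vector. The genes were taken by name: every symbol in the count tables beginning with HSPA, HSPB, HSPD, HSPE, HSPH, HSP90, DNAJA, DNAJB or DNAJC. Of 87 such symbols, 10 were left out, of which 5 were antisense names, 3 were pseudogene names (DNAJA1P5, HSP90AB4P and HSP90B2P) and 2 are pseudogenes in RefSeq (HSPA7 and DNAJB3). The remaining 77 genes, of 26364 in the tables, comprised 12 HSP70, 3 HSP110, 3 HSP90, 3 HSP60/HSP10, 8 small HSP, 4 DNAJA, 12 DNAJB and 29 DNAJC symbols, and 3 HSPB symbols that do not encode small HSPs (HSPBP1, HSPBAP1 and HSPB11). Of the 77, 64 had enough counts to be tested.

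Poly(A)-selected RNA was sequenced from MDA-MB-231, a triple-negative, mesenchymal-like human breast cancer line. MEL-18, the product of PCGF2, is a RING finger protein of the Polycomb repressive complex PRC1. Cells had been infected with pLVX lentivirus encoding MEL-18 T334A, in which a phosphorylated threonine is replaced, or MEL-18 WT, or nothing beyond the vector (CON, here called vector cells), and all 3 stable lines were grown for 48 h in DMEM with 10% FBS. Each group had 3 libraries described as biological replicates. The labels do not say whether replicates came from separate infections, so the p-values reflect variation among these libraries, and effects of the constructs cannot be told apart from differences among the 3 infected lines.

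Molecular chaperones bind unfolded stretches of other proteins and help them fold, assemble or be degraded. HSP70 proteins do this in cycles of ATP hydrolysis: DNAJ proteins (also called HSP40) deliver clients and trigger hydrolysis, and HSP110 proteins release the nucleotide. HSP90 acts later on clients such as kinases and steroid receptors, HSP60 with HSP10 folds proteins inside mitochondria, and small HSPs hold unfolded proteins without ATP. Many of the cytosolic and mitochondrial genes are transcribed under stress by HSF1, which binds heat shock elements, arrays of inverted GAA units in promoters.

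Promoter windows of the 250 bases before each RefSeq start (GRCh38.p14) were searched on both strands for 3 such units. These were GAA, TTC and GAA (or TTC, GAA and TTC) with any 2 bases between neighbouring units. Bases after the start were not searched. Of the 77 genes, 69 had a window, and 6 of these (8.7%) held the letters, against 0.557% of 27305 genes with a window. With 2 units (GAA and TTC in this order with 2 bases between them, which every match to 3 units contains) the shares were 23.2% of the chaperone genes, or 16, against 7.05% of all genes. A match is a description of the letters, not evidence of a bound site, and an absent match says only that these letters do not occur in that window. The 6 genes with 3 units are shown because all were called in MEL-18 T334A against vector cells. Of them 5 were lower (83.3%, against 45.3% of tested chaperone genes and 22.5% of all genes tested) and 1, HSPA6, was higher. Of all genes averaging at least 20 CPM, 32.7% were lower. DNAJB6, lower, and HSPA6, higher, were called in the same direction in MEL-18 WT cells. Whether the letters bear on these changes was not tested. Sequences run 5′ to 3′ in the direction of the gene, and capitals mark the matched letters. They lie at chr11:123062164-123062381 (HSPA8, minus strand), chr14:102087105-102087147 (HSP90AA1, minus), chr6:44247763-44247858 (HSP90AB1, plus), chr2:197500053-197500090 (HSPD1, minus), chr7:157336858-157336900 (DNAJB6, plus) and chr1:161524451-161524493 (HSPA6, plus).
HSPA8: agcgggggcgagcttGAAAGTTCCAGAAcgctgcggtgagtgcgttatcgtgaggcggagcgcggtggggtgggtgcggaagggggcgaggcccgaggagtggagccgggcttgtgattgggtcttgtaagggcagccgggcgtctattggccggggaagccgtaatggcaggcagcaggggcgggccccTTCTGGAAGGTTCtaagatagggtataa
HSP90AA1: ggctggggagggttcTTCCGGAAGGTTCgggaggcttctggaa
HSP90AB1: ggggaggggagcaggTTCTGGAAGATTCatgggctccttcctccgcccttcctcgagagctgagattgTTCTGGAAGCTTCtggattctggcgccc
HSPD1: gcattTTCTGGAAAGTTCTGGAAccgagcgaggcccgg
DNAJB6: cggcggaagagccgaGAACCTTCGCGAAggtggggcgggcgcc
HSPA6: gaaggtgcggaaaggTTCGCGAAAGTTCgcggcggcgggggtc
HSPA8, HSP90AB1 and HSPD1 each held 2 matches, and those of HSPD1 overlapped. The match nearest to the start ended 43 bases before it in HSPA8, 62 in HSPA6, 76 in HSP90AA1, 100 in HSP90AB1, 119 in DNAJB6 and 228 in HSPD1.

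Libraries held 31643722 to 37005302 counts over genes. PCGF2 checked the labels: it averaged 1420 CPM in MEL-18 T334A cells and 1286 CPM in MEL-18 WT cells, against 22.7 CPM in vector cells. VIM, CD44, CAV1, AXL and KRT18 averaged 254 to 1545 CPM in every group, and ESR1, PGR and CDH1 stayed at or below 0.144 CPM, while ERBB2 averaged 63.8 to 69.9 CPM. Of 9 markers of leukocytes, endothelium, fibroblasts and neurons, all but CD68 averaged under 1 CPM in every group; the list summed to 49.8 to 54.9 CPM in MEL-18 T334A, 54.3 to 59.1 CPM in WT and 55.9 to 58 CPM in vector libraries, of which CD68 made up nearly all, and DCN was at 0 in T334A and vector cells, as was CD3E in T334A cells. Of the 4 markers with enough counts to test, CD68, PECAM1 and CDH5 were lower in T334A and PTPRC, PECAM1 and CDH5 in WT against vector, PECAM1 and CDH5 by 1.52 ± 0.27 and 2.20 ± 0.30 on the log2 scale in T334A; their part in the chaperone results was not tested. MEL-18 T334A replicate 3 stood apart from the other T334A libraries, with chi-square values per degree of freedom of 3.81 and 4.17 against replicates 1 and 2, while the other pairs within groups had 1.52 to 2.89. Chaperone totals were highest in it among T334A libraries, so values without it are given below.

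The whole chaperone set took a smaller share of the counts in MEL-18 T334A cells than in the other lines. It held 1.48% to 1.59% of the counts in T334A libraries, 1.73% to 1.75% in WT and 1.73% to 1.77% in vector libraries. The 77 genes summed to 14955, 14587 and 15840 CPM in the MEL-18 T334A libraries, to 17185, 17619 and 17511 CPM in the MEL-18 WT libraries and to 18107, 17462 and 17500 CPM in the vector libraries. Every T334A library, replicate 3 included, lay below all 6 others, and the WT and vector libraries overlapped. With CPM scaled by TMM, the T334A mean was 0.855 of the vector mean and 0.868 of the WT mean, and 0.835 and 0.847 without T334A replicate 3. With library totals in place of TMM these ratios were 0.8781 and 0.8785. In CPM the drop against vector cells was -2562, of which HSPA8, HSP90AA1 and HSP90AB1 accounted for -1893 (73.9%). The other genes together still summed lower, to 7604 ± 179 CPM in MEL-18 T334A, 8075 ± 35.9 CPM in WT and 8273 ± 90.1 CPM in vector cells (SD, n = 3 each).

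**Figure D1:**
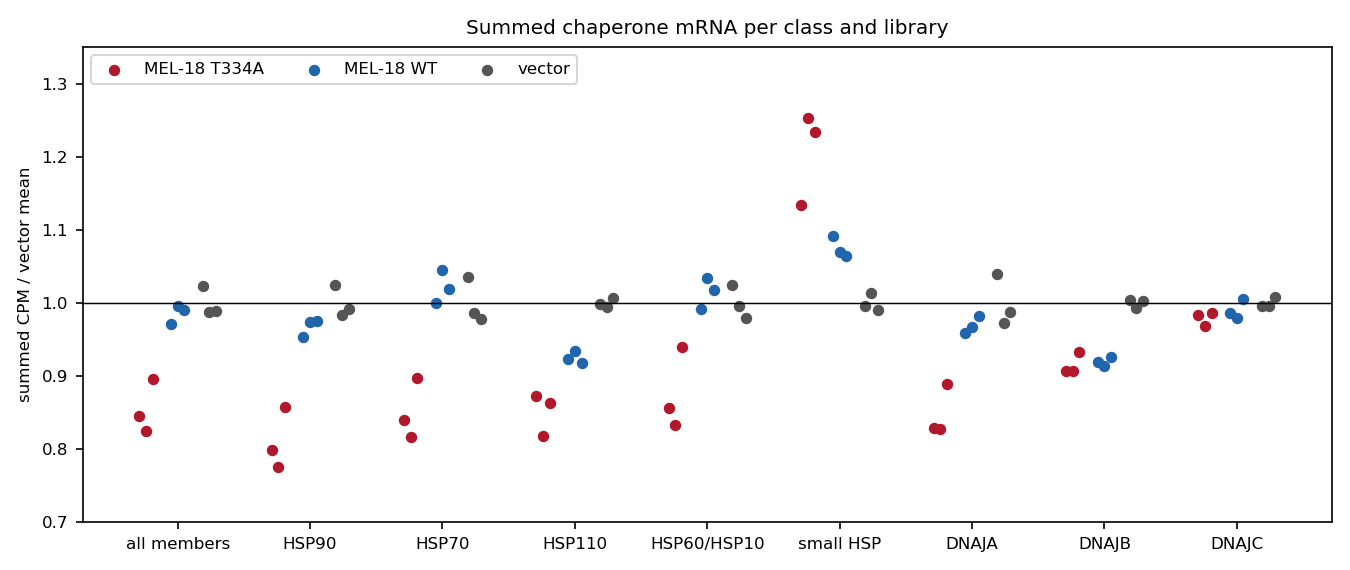
Summed CPM of each chaperone class in every library (points), divided by the mean of the 3 vector libraries (line at 1), with MEL-18 T334A left, MEL-18 WT in the middle and vector right; the axis does not start at 0. HSP90 sums lay at 5192 to 5742 CPM in T334A against 6577 to 6857 CPM in vector libraries, and DNAJC sums barely moved. Small HSP sums ran the other way, but were nearly all HSPB1 (a mean of 178.5 of 179.5 CPM in T334A).

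By edgeR's quasi-likelihood test, with a call at a Benjamini-Hochberg adjusted p below 0.05 over 14738 genes, 39 of the 64 tested chaperone genes (60.9%) were called between MEL-18 T334A and vector cells, against 45.9% of all genes tested. Of them 29 were lower (45.3%, against 22.5% of all genes) and 10 were higher (15.6%, against 23.4%). Their median log2 fold change was -0.10, against -0.0022 over all genes. Chaperone genes are abundant, and abundant genes are called more easily: among genes averaging at least 20 CPM, a limit chosen after the values were seen, 26 of 43 chaperone genes were lower (60.5%, against 32.7% of all such genes) and 5 were higher (11.6%, against 23.3%). Scaling by library totals in place of TMM shifted all log2 fold changes of this comparison upwards (median 0.0361), so that 64% rather than 51.1% of all calls were higher, and left 21 chaperone genes lower and 11 higher. Without T334A replicate 3, 29 were lower and 10 higher.

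Between MEL-18 WT and vector cells, 20 of 64 were called (31.2%, against 28.8% of all genes tested). Of them 8 were higher (12.5%, against 14.4%) and 12 lower (18.8%, against 14.4%), close to the background when genes of every level are taken. The median was -0.02. Among chaperone genes averaging at least 20 CPM, 10 of 43 were lower (23.3%) and 3 higher (6.98%). The share of all genes at that level is not given here for this comparison. With library totals 60.1% rather than 50.1% of all calls of this comparison were higher, and 10 chaperone genes were higher and 10 lower. Between MEL-18 T334A and MEL-18 WT cells 25 were called (39.1%, against 40.9%), 6 higher and 19 lower (29.7%, against 20% of all genes; 9.38% higher, against 21%). Among genes averaging at least 20 CPM, 17 of 43 were lower, or 39.5% against 27.7%. The last contrast is the test of whether the 2 MEL-18 lines differ. Of the 64 genes, 13 (20.3%, against 10.9% of all genes tested) were lower in T334A cells than in both other lines and not called between WT and vector cells: HSP90AA1, HSP90AB1, HSP90B1, HSPA8, HSPA13, HSPA14, HSPD1, HSPE1, DNAJA1, DNAJA3, DNAJC5, DNAJC7 and DNAJC12. Another 8 (12.5%, against 4%) were lower in both MEL-18 lines than in vector cells with no call between the lines, 4 (6.25%, against 6%) were higher in both with no such call, and 19 (29.7%, against 38.8%) were called in no comparison.

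**Figure D2:**
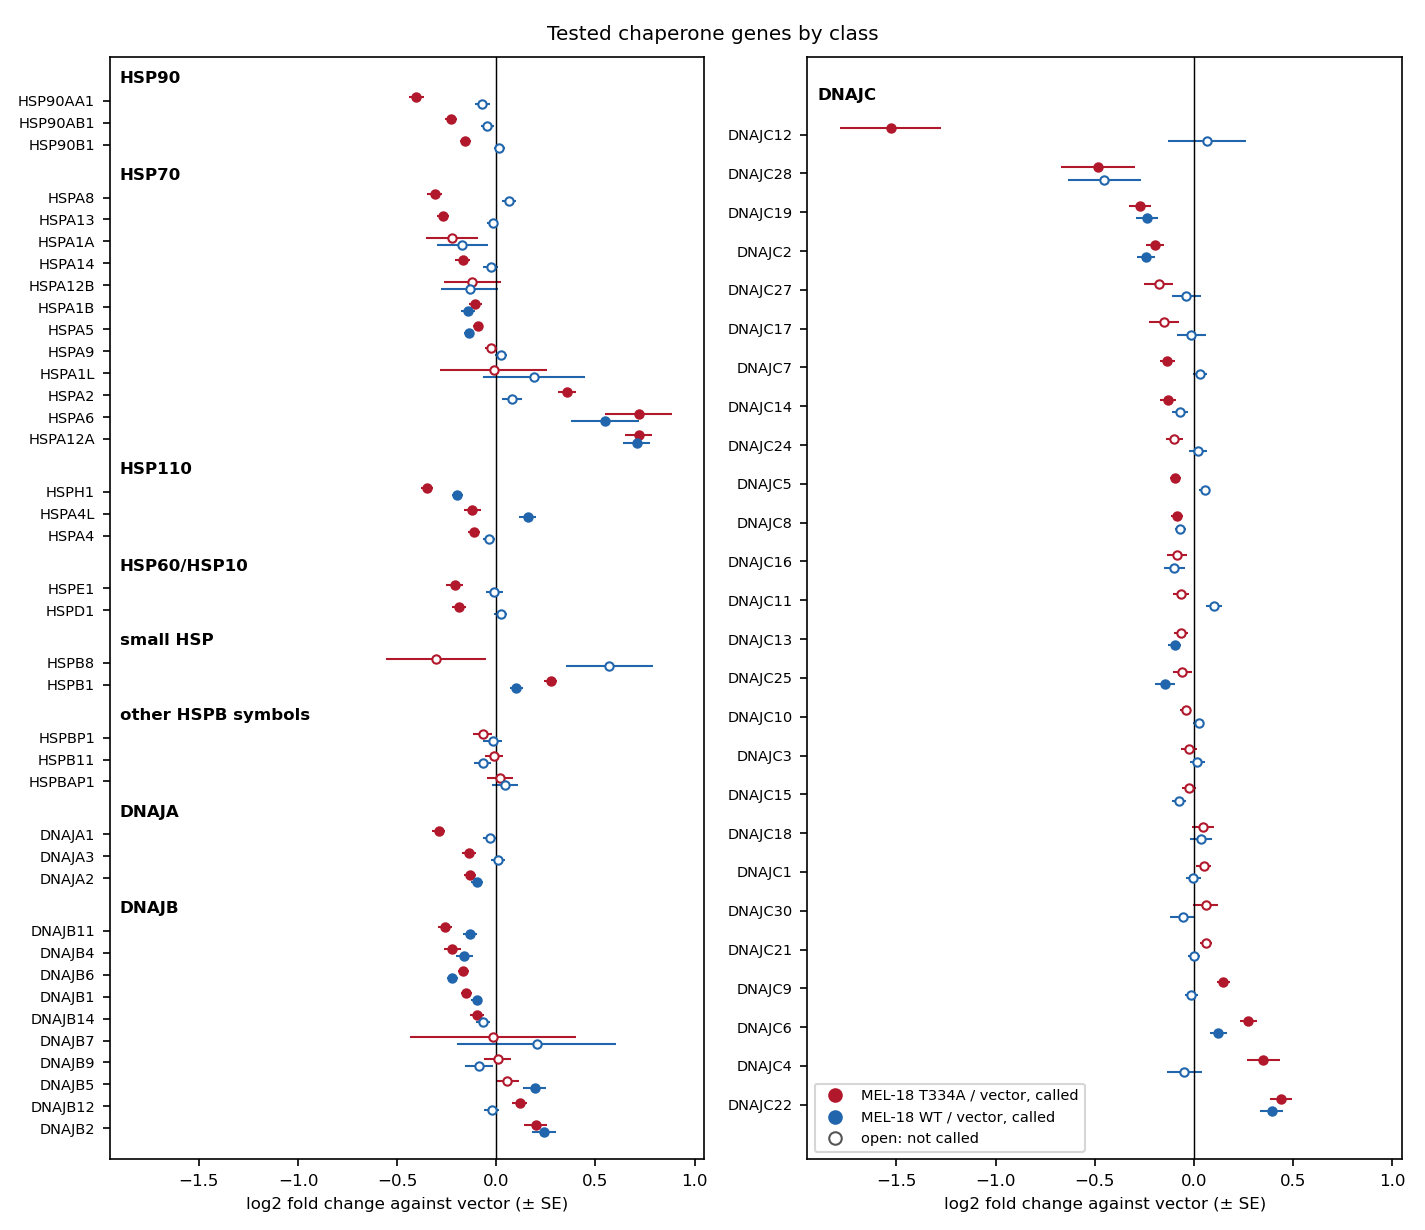
Log2 fold change against vector cells (± SE) of the 64 tested chaperone genes by class, with MEL-18 T334A in red above MEL-18 WT in blue; filled points were called. HSP90, HSP110, HSP60/HSP10 and DNAJA genes all lie left of 0 in T334A, whereas HSPA12A, HSPA6, HSPA2, DNAJC22, DNAJC4, DNAJC6 and HSPB1 lie on the right.

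All 3 HSP90 genes fell in MEL-18 T334A cells against both other lines, and none was called between WT and vector cells in the fit of all libraries. Over all genes tested, 22.5% were lower in T334A against vector and 20% against WT. Of genes averaging at least 20 CPM the shares were 32.7% and 27.7%. HSP90AA1, the stress-inducible cytosolic HSP90, had 2534, 2437 and 2807 CPM in MEL-18 T334A, 3225, 3274 and 3293 CPM in WT and 3552, 3346 and 3383 CPM in vector libraries. The T334A values did not overlap with either of the other groups, and the WT libraries lay below all vector libraries by less. Its log2 fold change was -0.40 ± 0.04 for T334A against vector (adjusted p = 1.4e-09), -0.33 ± 0.04 for T334A against WT (adjusted p = 6.4e-08) and -0.07 ± 0.04 for WT against vector (adjusted p = 0.17; called, at 0.038, in a fit of these groups alone). HSP90AB1, its constitutive counterpart, had 1812, 1776 and 1919 CPM in T334A, 2030, 2134 and 2096 CPM in WT and 2185, 2142 and 2129 CPM in vector libraries, again with all T334A libraries lowest; the log2 fold changes of T334A were -0.23 ± 0.03 against vector and -0.18 ± 0.03 against WT, and WT against vector, at -0.04 ± 0.03, was called with the neighbours' shift taken out (-0.10). HSP90B1, the HSP90 of the endoplasmic reticulum (ER) known as GRP94, was lower by a smaller amount, at 996, 979 and 1016 CPM in T334A against 1122, 1109 and 1139 CPM in WT and 1119, 1089 and 1125 CPM in vector libraries (log2 fold change -0.16 ± 0.03 against vector and -0.17 ± 0.03 against WT).

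The balance of the inducible to the constitutive cytosolic HSP90 was also read within each library. The ratio of HSP90AA1 to HSP90AB1 counts was 1.40, 1.37 and 1.46 in MEL-18 T334A, 1.59, 1.53 and 1.57 in MEL-18 WT and 1.63, 1.56 and 1.59 in vector libraries. No T334A library reached the ratio of any other library. An exact two-sided permutation test over libraries gave p = 0.1 for T334A against vector and for T334A against WT, the smallest value that 3 against 3 libraries allow, and p = 0.4 for WT against vector (0.3, 0.3 and 0.8 after Benjamini-Hochberg adjustment over 6 ratio tests).

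**Figure D3:**
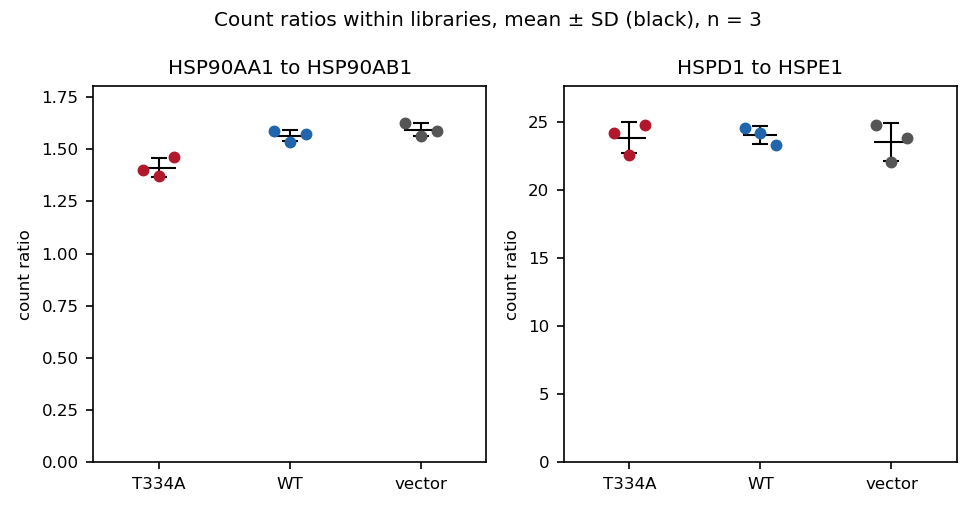
Ratio of raw counts of HSP90AA1 to HSP90AB1 (left) and of HSPD1 to HSPE1 (right) in each library, with mean ± SD in black (n = 3). The HSP90 ratio is 1.37 to 1.46 in MEL-18 T334A and 1.53 or more elsewhere, whereas the groups overlap for HSPD1 to HSPE1.

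Among 12 HSP70 genes, 5 fell (41.7%, against 22.5% of all genes) and 3 rose (25%, about the 23.4% of all genes) in MEL-18 T334A against vector cells. HSPA8, the constitutive HSC70, had the highest level per kilobase of exon in vector cells, at 1422 CPM per kb, followed by HSP90AA1 at 851 and HSP90AB1 at 722 CPM per kb (lengths from GENCODE v29, an approximation to the annotation counted). HSPA8 had 3044, 2927 and 3315 CPM in T334A, 3889, 4140 and 4009 CPM in WT and 4007, 3791 and 3716 CPM in vector libraries. The T334A libraries were all lowest, and WT and vector libraries overlapped. Its log2 fold change was -0.31 ± 0.04 against vector (adjusted p = 1.4e-07) and -0.37 ± 0.04 against WT (adjusted p = 9.1e-09). HSPA13, a microsome-associated HSP70, fell by 0.27 ± 0.03 and 0.25 ± 0.03 on the log2 scale, and HSPA14, the cytosolic partner of the ribosome-associated DNAJC2, fell by 0.17 ± 0.04 and 0.14 ± 0.04. The neighbours of HSPA13 on its chromosome had medians of -0.14 against vector and -0.18 against WT. With the neighbours' shift taken out, HSPA13 came to -0.13 and -0.09, both still called.

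HSPA5, the ER chaperone BiP, and the stress-inducible HSPA1B were lower in both MEL-18 lines than in vector cells, with no call between these lines. HSPA5 had 660, 660 and 665 CPM in T334A and 651, 632 and 638 CPM in WT, against 705, 699 and 710 CPM in vector libraries, so that all vector libraries were highest. With the shift of chromosomal neighbours (the 20 tested genes on each side) taken out, the WT calls of HSPA5 and HSPA1B were lost. In that setting the difference of HSPA5 between T334A and WT came to -0.12 and was called. HSPA1B had a log2 fold change of -0.11 ± 0.03 in T334A and -0.14 ± 0.03 in WT against vector, the T334A call being lost without vector replicate 1 or T334A replicate 1. Scaling by library totals ended the T334A calls of both HSPA5 and HSPA1B. HSPA1A and HSPA1B encode nearly identical proteins, and how reads matching both were counted is not given in the sources used here. HSPA1A was listed at only 2.15 to 2.93 CPM; the pair summed to 67.0 ± 1.30 CPM in T334A, 65.5 ± 1.14 CPM in WT and 72.3 ± 2.91 CPM in vector cells (SD, n = 3 each). HSPA9, the mitochondrial HSP70 (mortalin), was not called in any comparison, at 643 to 696 CPM in T334A, 684 to 695 CPM in WT and 663 to 697 CPM in vector libraries.

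The HSP70 genes that rose were of low or moderate level. HSPA12A, a distant relative of HSP70, had 15.4, 13.6 and 14.6 CPM in MEL-18 T334A, 14.5, 14.5 and 14.1 CPM in WT and 8.33, 8.59 and 9.53 CPM in vector libraries. Both MEL-18 lines lay above every vector library, by 0.72 ± 0.07 and 0.71 ± 0.07 on the log2 scale (adjusted p = 2.2e-09 and 6.1e-09). The neighbours of HSPA12A on its chromosome had a median of 0.30 in T334A and 0.16 in WT against vector, and with that shift taken out the values were 0.42 and 0.55, both still called. HSPA6, a strictly stress-inducible HSP70, was scarce, with 73, 78 and 78 counts in T334A, 86, 73 and 50 in WT and 41, 44 and 47 in vector libraries. It was higher by 0.72 ± 0.17 in T334A and by 0.55 ± 0.17 in WT; the WT call was lost without vector replicate 1 or 2, without WT replicate 1 and with DESeq2. HSPA2, known from spermatogenesis, had 26.2, 28.1 and 25.6 CPM in T334A, 22.1, 22.1 and 21.8 CPM in WT and 20.8, 20.6 and 21.1 CPM in vector libraries, and the T334A libraries were highest throughout. The log2 fold change was 0.36 ± 0.05 against vector and 0.28 ± 0.05 against WT.

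**Figure D4:**
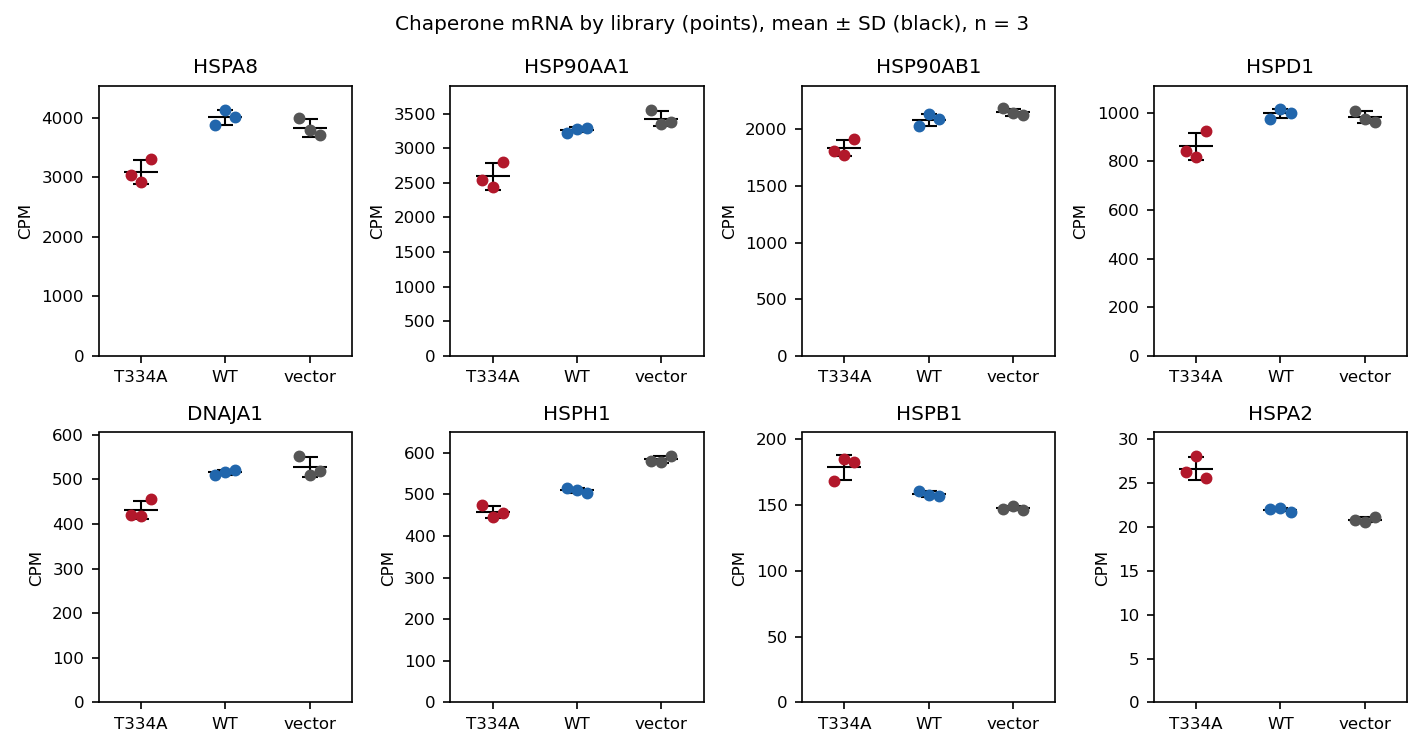
CPM of 8 chaperone genes in each library (points), with mean ± SD in black (n = 3); each axis starts at 0. HSPA8, HSP90AA1, HSP90AB1, HSPD1 and DNAJA1 are lower in MEL-18 T334A than in either other line, HSPH1 is graded over the 3 lines, and HSPB1 and HSPA2 are highest in T334A.

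The 3 HSP110 genes, which act as nucleotide exchange factors of HSP70, were all lower in MEL-18 T334A than in vector cells. Over all genes tested 22.5% were lower, and 32.7% of those averaging at least 20 CPM. HSPH1 (HSP105) had 474, 446 and 455 CPM in T334A, 515, 511 and 502 CPM in WT and 580, 579 and 593 CPM in vector libraries. The 3 groups did not overlap, with WT in between. Its log2 fold change was -0.35 ± 0.03 for T334A and -0.20 ± 0.03 for WT against vector, and -0.15 ± 0.03 for T334A against WT (adjusted p = 1.2e-10, 4.7e-06 and 9.1e-05). HSPA4 (APG-2) fell by 0.11 ± 0.03 in T334A against vector, a call that was lost without T334A replicate 2. HSPA4L (APG-1) was the only chaperone gene called in opposite directions in the MEL-18 lines, at 35.7, 34.7 and 37.7 CPM in T334A and 41.4, 44.5 and 45.4 CPM in WT, against 38.7, 38.7 and 40.3 CPM in vector libraries. This 1 gene is 1.56% of the tested chaperone genes, and 0.645% of all genes tested had the same 3 calls. Its T334A call against vector was lost in 6 of 17 alternatives.

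HSPD1 (HSP60) and HSPE1 (HSP10), which form the mitochondrial chaperonin and are transcribed from opposite sides of a shared promoter, fell together. HSPD1 had 842, 817 and 925 CPM in MEL-18 T334A, 976, 1016 and 999 CPM in WT and 1008, 975 and 962 CPM in vector libraries. HSPE1 had 34.8, 36.2 and 37.4 CPM in T334A, 39.7, 42.0 and 42.8 CPM in WT and 40.7, 44.2 and 40.4 CPM in vector libraries. For both genes the T334A libraries were lowest and the other groups overlapped. The log2 fold changes of T334A were -0.19 ± 0.03 and -0.21 ± 0.04 against vector, and -0.21 ± 0.03 and -0.20 ± 0.04 against WT. The ratio of HSPD1 to HSPE1 counts was 23.8 ± 1.14 in T334A, 24.01 ± 0.641 in WT and 23.5 ± 1.38 in vector cells (SD, n = 3 each; exact permutation p of 0.7 to 0.9). Both genes have many pseudogene copies, and HSPE1 overlaps the read-through symbol HSPE1-MOB4, listed at 0 to 2 counts, so their absolute levels are uncertain.

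Of the small HSPs only HSPB1 and HSPB8 were tested. HSPB1 (HSP27), the more abundant, had 168, 185 and 183 CPM in MEL-18 T334A, 161, 157 and 157 CPM in WT and 147, 149 and 146 CPM in vector libraries. The groups did not overlap. It was higher by 0.27 ± 0.03 in T334A and by 0.10 ± 0.03 in WT against vector, and by 0.17 ± 0.03 in T334A against WT (adjusted p = 1.1e-07, 0.02 and 9.8e-05); the WT call was lost without vector replicate 1 or 3 or WT replicate 1. The neighbours of HSPB1 on chromosome 7 had medians of 0.06 in T334A and -0.12 in WT against vector; with these shifts taken out of each line, the difference between T334A and WT was -0.0099 (adjusted p = 0.85) and that between T334A and vector was 0.21, still called. HSPB8 (HSP22), a partner of BAG3 in autophagy, was near the lower limit, with 16, 38 and 27 counts in T334A, 45, 68 and 40 in WT and 33, 31 and 31 in vector libraries. It was lower in T334A than in WT by 0.88 ± 0.23 on the log2 scale. Against vector cells T334A was not called, and WT missed the threshold narrowly, at 0.57 ± 0.22 (adjusted p = 0.05028) with no overlap of the libraries, and was called in 10 of 17 alternatives. The other 6 small HSP symbols (HSPB2, HSPB2-C11orf52, HSPB3, HSPB6, HSPB7 and HSPB9) were not tested, at 0 to 8 counts per library, and the 3 other HSPB symbols were called in no comparison.

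The 3 tested DNAJA genes, which deliver clients to HSP70, were all lower in MEL-18 T334A than in vector cells. Over all genes tested 22.5% were lower, and 32.7% of those averaging at least 20 CPM. DNAJA1, a major cytosolic partner of HSPA8, had 421, 417 and 455 CPM in T334A, 509, 515 and 521 CPM in WT and 553, 510 and 519 CPM in vector libraries. All T334A libraries were lowest, while WT and vector libraries overlapped. In log2 terms it changed by -0.29 ± 0.03 against vector and -0.26 ± 0.03 against WT (adjusted p = 6.5e-08 and 6.9e-07). With the shift of its neighbours taken out, the values were -0.17 and -0.09, both called. The mitochondrial DNAJA3 (TID1) fell by 0.14 ± 0.04 against vector and 0.15 ± 0.04 against WT, and DNAJA2 was lower in T334A by 0.13 ± 0.03 and in WT by 0.10 ± 0.03 than in vector cells, the WT call being lost without vector replicate 1, WT replicate 1 or WT replicate 2.

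Of 10 tested DNAJB genes, 5 fell and 2 rose in T334A against vector cells (50% and 20%, against 22.5% and 23.4% of all genes), and 4 fell and 2 rose in WT (40% and 20%, against 14.4% each). Of these, DNAJB1, DNAJB2, DNAJB4, DNAJB6 and DNAJB11 were called in the same direction in both lines. DNAJB11 and DNAJB12 alone among DNAJB genes were called between T334A and WT in the fit of all libraries. DNAJB6, which suppresses protein aggregation, had 203, 206 and 211 CPM in T334A and 200, 200 and 197 CPM in WT, against 235, 233 and 228 CPM in vector libraries, and every vector library was highest. Its log2 fold change was -0.17 ± 0.03 in T334A and -0.22 ± 0.03 in WT (adjusted p = 1.6e-05 and 5.5e-07). DNAJB1, the classical partner of inducible HSP70, fell by 0.15 ± 0.03 and 0.10 ± 0.03, and DNAJB4 by 0.22 ± 0.04 and 0.16 ± 0.04. DNAJB2 rose by 0.20 ± 0.06 in T334A and 0.24 ± 0.06 in WT; the T334A call was lost without T334A replicate 1. DNAJB11 (ERdj3), a BiP partner, fell by 0.26 ± 0.04 in T334A against vector, beside a neighbour median of -0.25, and DNAJB12 rose by 0.12 ± 0.04, beside 0.22; with the neighbours' shift taken out the call of DNAJB11 was lost and DNAJB12 came to -0.10. The DNAJB12 call was also lost without vector replicate 1, and that of DNAJB1 in WT without vector replicate 3 or with the neighbours' shift taken out.

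DNAJC genes, the most varied class, were called at 12 of 26 in MEL-18 T334A against vector cells (46.2%, near the background), 4 higher (15.4%) and 8 lower (30.8%). DNAJC12, which binds aromatic amino acid hydroxylases, showed the largest difference of any tested chaperone gene, with 13, 17 and 11 counts in T334A, 37, 42 and 49 in WT and 37, 32 and 44 in vector libraries. Every T334A library was far below the others. Its log2 fold change was -1.53 ± 0.26 against vector and -1.60 ± 0.25 against WT (adjusted p = 2.0e-05 and 1.1e-05); it averaged just under 1 CPM and is named because of this value. DNAJC2 (ZRF1), a ribosome-associated co-chaperone that also binds the ubiquitinated histone H2A made by PRC1, had 49.1, 46.4 and 54.2 CPM in T334A and 47.0, 48.0 and 50.04 CPM in WT, against 58.2, 56.3 and 57.0 CPM in vector libraries. It was lower in both MEL-18 lines, by 0.20 ± 0.04 in T334A and 0.24 ± 0.04 in WT, with no call between them. Its neighbours had medians of 0.07 and -0.14, and with their shift taken out the WT call was lost. In that setting the difference of DNAJC2 between T334A and WT came to -0.17 and was called.

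DNAJC19, of the mitochondrial import motor, also fell in both lines, by 0.27 ± 0.06 in T334A and 0.24 ± 0.05 in WT, beside neighbour medians of -0.23 and -0.11; neither call held with the neighbours' shift taken out. DNAJC28 was lower in T334A by 0.48 ± 0.19, a call lost in 7 of 17 alternatives. DNAJC5, the cysteine string protein of secretory vesicles, and DNAJC7, which links HSP70 and HSP90, fell in T334A against vector by 0.09 ± 0.03 and 0.13 ± 0.04; the DNAJC5 call was lost without vector replicate 2 and with library totals. On the higher side, DNAJC22 had 20.2, 21.6 and 18.9 CPM in T334A and 20.1, 19.7 and 18.8 CPM in WT, against 14.5, 14.8 and 15.4 CPM in vector libraries. Both MEL-18 lines lay above all vector libraries, by 0.44 ± 0.06 and 0.39 ± 0.06 on the log2 scale. DNAJC6 (auxilin), which uncoats clathrin vesicles, rose by 0.27 ± 0.04 in T334A and 0.12 ± 0.04 in WT, the WT call being lost without any 1 of 5 libraries (vector replicates 1 and 2, each WT replicate), with DESeq2 and with the neighbours' shift taken out. DNAJC4 rose in T334A by 0.35 ± 0.08 against vector and by 0.40 ± 0.08 against WT; the call against WT was lost with the neighbours' shift taken out, as were those of DNAJC7 and DNAJA3 against WT and of DNAJC7 and DNAJA2 against vector. DNAJC9, a histone chaperone partner, rose by 0.15 ± 0.03, beside a neighbour median of 0.25 on chromosome 10, and came to -0.10 with that shift taken out. The untested symbols outside the small HSPs, DNAJA4, DNAJB8, DNAJB13, DNAJC5B, DNAJC5G, DNAJC25-GNG10 and HSPE1-MOB4, had 0 to 8 counts per library.

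By compartment, 9 ER chaperones gave 4 lower and 0 higher in T334A against vector cells (HSPA13, DNAJB11, HSP90B1 and HSPA5). The 10 mitochondrial ones gave 5 lower and 1 higher. That is 44.4% and 50% lower, against 22.5% of all genes tested and 32.7% of those averaging at least 20 CPM, and 0% and 10% higher, against 23.4%. Of 13 members listed here as HSF1-inducible, most of them abundant, 10 were lower in T334A (76.9%, against 22.5% of all genes and 32.7% of those averaging at least 20 CPM), HSPA6 and HSPB1 were higher, and HSPA1A was not called. The list includes HSPA8 and HSP90AB1, described above as constitutive. In WT against vector cells the same 13 gave 3 higher and 3 lower (23.1% each, against 14.4% each). Their summed level was 9779 ± 550 CPM in T334A, 11888 ± 228 CPM in WT and 12018 ± 327 CPM in vector cells (SD, n = 3 each). Most of it lay in HSPA8, HSP90AA1 and HSP90AB1, which summed to 7523 ± 465, 9364 ± 204 and 9417 ± 285 CPM in the same order. HSPA1A and HSPA1B, also in this list, summed to 67.0, 65.5 and 72.3 CPM. Lower genes occurred with and without the promoter letters: of the 14 tested genes with 2 units, 8 were lower and 2 higher in T334A against vector (57.1% and 14.3%, median -0.18), and of the 45 with a window lacking them 20 were lower and 7 higher (44.4% and 15.6%, median -0.08), against 22.5% lower and 23.4% higher of all genes.

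**Figure D5:**
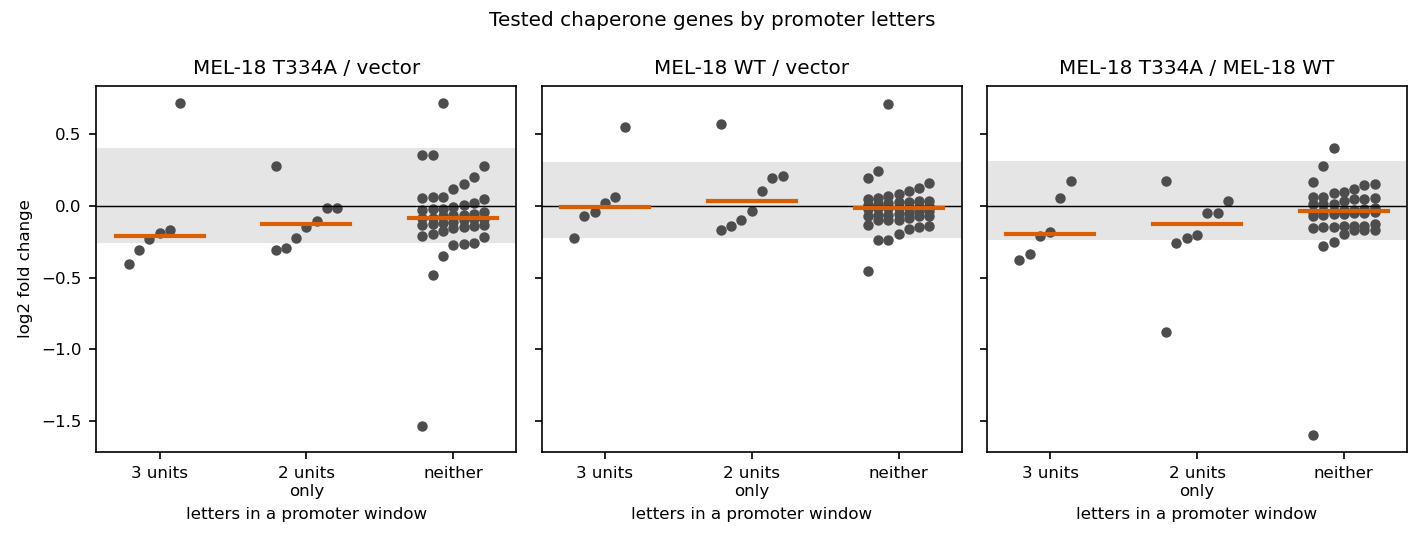
Log2 fold changes of tested chaperone genes (points) with 3 heat shock element units, with 2 units only, or with neither in a RefSeq promoter window; orange bars are medians and the grey band holds the middle of all 14738 genes, between their 10th and 90th percentiles. Genes with 3 units had a median of -0.21 in MEL-18 T334A against vector and -0.01 in MEL-18 WT against vector, and HSPA6 is the high point in both.

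Genes of the same pathway outside the naming rule moved unevenly. Over all genes tested, 22.5% were lower and 23.4% higher in T334A against vector, and 14.4% each way in WT. Among genes averaging at least 20 CPM, 32.7% were lower and 23.3% higher in T334A against vector. HSF1 was not called in any comparison, at 80.4 CPM in MEL-18 T334A, 84.8 CPM in WT and 83.3 CPM in vector cells, whereas HSF2 fell in T334A by 0.19 ± 0.04 and HSF4 rose by 0.17 ± 0.05 against vector. Of 11 tested HSF1-inducible genes outside the family, 4 fell and 2 rose in T334A against vector (36.4% and 18.2%). Of 21 HSP90 co-chaperones, 4 fell and 3 rose (19% and 14.3%, both under the shares of all genes): CHORDC1 fell to 126 CPM in T334A, against 158 CPM in WT and 159 CPM in vector cells (log2 fold change -0.33 ± 0.03 against vector), and the immunophilins FKBP5 and FKBP4 rose by 0.37 ± 0.03 and 0.31 ± 0.03, and also in WT by 0.27 ± 0.03 and 0.25 ± 0.03. Of 16 HSP70 co-chaperones, 7 fell and 2 rose (43.8% and 12.5%), among them BAG2, lower by 0.23 ± 0.04, and BAG3, higher by 0.17 ± 0.03 beside neighbours at 0.31 and at -0.15 with their shift taken out. The cytosolic chaperonin TRiC, which folds actin and tubulin, had 6 of 8 subunits lower in T334A (75%) and 5 lower in WT (62.5%) against vector, led by CCT4 at -0.36 ± 0.03 in T334A, beside neighbours at -0.24; the WT calls of TCP1 and CCT7 were each lost without vector replicate 1 or 2 or any WT replicate. Of 6 prefoldin subunits, 3 fell and 1 rose in T334A (50% and 16.7%); of 8 mitochondrial quality control genes, 4 fell and 1 rose (50% and 12.5%), with the mitochondrial HSP90 TRAP1 lower by 0.17 ± 0.04. Of 17 other ER stress genes, 9 fell and 4 rose (52.9% and 23.5%), DDIT3 (CHOP) being lower by 0.42 ± 0.10 and CRELD2 higher by 0.29 ± 0.06.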

How the data were processed

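The deposited files held raw read counts for each gene symbol, not normalized, which the authors made with CASAVA 1.8, STAR 2.5.3a and featureCounts of Subread 1.5.3 on hg19, per the submitters' processing notes. For the annotation, the strand setting and the treatment of reads mapping to several places or genes, nothing is stated in the sources used here, which makes counts of near-identical, overlapping or antisense genes uncertain.

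Genes passing edgeR's filterByExpr (14738 of 26364) were scaled by TMM and fitted in edgeR 4.0.16 (R 4.3.3) by quasi-likelihood on all 9 libraries, 1 mean per group and no replicate term, with two-sided F tests and Benjamini-Hochberg adjustment over all genes tested. CPM use TMM-scaled totals; the SE of a log2 fold change is its size over the square root of F. Neighbour medians took the 20 tested genes on each side, without chaperone genes. Alternatives were DESeq2 1.42.0, RLE factors, library totals alone, other filters, a replicate term, the compared groups alone, the neighbours' shift against vector as an offset for each MEL-18 line and each library left out. The fits were tested on simulated data. Same-numbered libraries did not visibly deviate together (correlations of -0.08 to 0.01). This cannot show whether they were handled together, and the labels do not say whether the numbers pair them.

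Named genes were the HSP90, HSPH, HSPD and HSPE genes, 6 HSF1-inducible genes, per comparison the 8 most positive and 8 most negative called members averaging at least 1 CPM, the highest of each class, up to 3 called genes per outside list, and PCGF2; further genes were named after their values were seen. The members and lists were chosen with earlier results of these data known.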

Additional observations from a re-analysis of the deposited data

Results flagged for a closer look

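HSPA4L differed between the MEL-18 lines, with opposite directions against the vector: its log2 fold change was -0.12 ± 0.04 for MEL-18 T334A and 0.16 ± 0.04 for MEL-18 WT against vector cells. The test of the difference itself, MEL-18 T334A against MEL-18 WT, gave -0.28 ± 0.04 (edgeR quasi-likelihood, adjusted p = 6.1e-06). Of the tested chaperone genes 1.56%, this gene alone, had these 3 calls, against 0.645% of all genes tested. All 3 T334A libraries, at 34.7 to 37.7 CPM, lay below all vector libraries, at 38.7 to 40.3 CPM, and all 3 WT libraries, at 41.4 to 45.4 CPM, lay above them. The call of T334A against vector was lost in 6 of 17 alternatives, among them the removal of T334A replicate 1, T334A replicate 2 or vector replicate 3; the difference between the MEL-18 lines was called in all 17.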

How the results depend on the processing

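Of the calls on tested chaperone genes, 23 of 39 for MEL-18 T334A against vector, 7 of 20 for MEL-18 WT against vector and 17 of 25 for T334A against WT held in all 17 alternatives. Leaving out 1 library at a time gave 9 to 10 higher and 25 to 30 lower for T334A against vector, 5 to 10 higher and 9 to 12 lower for WT against vector (5 without vector replicate 1), and 6 higher and 18 to 20 lower for T334A against WT. The members' medians then ran from -0.0993 to -0.0879, -0.024 to -0.0062 and -0.0502 to -0.0307, and the summed level ratios from 0.835 to 0.870, 0.980 to 0.998 and 0.847 to 0.883. The log2 difference of the HSP90AA1 to HSP90AB1 ratio ran from -0.20 to -0.15, -0.04 to -0.01 and -0.18 to -0.13, and that of HSPD1 to HSPE1 from -0.03 to 0.06, -0.02 to 0.07 and -0.04 to 0.03. With library totals alone the medians were -0.057, 0.0017 (turned in sign) and -0.028. With the neighbours' shift taken out they were -0.076 for T334A against vector and -0.0773 for T334A against WT, and 6 rather than 12 members were lower in WT against vector. Among single genes called in either fit, directions turned in that setting only, 17 times (another 110 turns, 28 of them in that setting, were of values called in neither fit): for T334A against vector, DNAJB12 (-0.10), DNAJC9 (-0.10), BAG3 (-0.15) and CCT7 (0.0138); for WT against vector, DNAJC25 (0.0669) and CCT7 (0.0064); for T334A against WT, DNAJB12 (-0.0913), DNAJC9 (-0.11), DNAJB11 (0.0092), HSPB1 (-0.0099), DNAJC2 (-0.17), DNAJB6 (-0.0781), DNAJC25 (-0.15), HSPA5 (-0.12), FKBP5 (-0.0573), CCT7 (0.0074) and AFG3L2 (-0.069); that setting removes the regional shift by construction. With 2 promoter units in place of 3, 16 rather than 6 genes matched. A replicate block, though the labels state no pairing of the libraries, gave 10 higher and 29 lower, 10 higher and 12 lower, and 6 higher and 19 lower in the 3 comparisons. Depth limited the scarce genes: HSPA6, HSPB8, DNAJC12 and DNAJC28 rest on 11 to 86 counts per library, and 13 members could not be tested.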
